A study of Mus musculus with 12 samples.

Results

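The genes described here encode cytokine receptor chains: subunits of the receptors for interleukins, interferons, growth hormone, prolactin, leptin, erythropoietin and colony stimulating factors. They were chosen by symbol from a list of 37 receptor genes, and 9 further chains (Il2ra, Il2rg, Il3ra, Il5ra, Il7r, Csf2ra, Csf2rb, Csf2rb2 and Crlf2) were left out. All 37 were found among the 51826 mouse genes of the count table.

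RNA was sequenced from 12 lines of cultured pre-B cells, B lymphocyte precursors that need IL7 to grow in culture. Marrow of 2 C57BL/6 mice was cultured with IL7 for 7 days, and cells of each mouse were then transduced with an empty retroviral vector (EV) or with a vector for BCR-ABL1, a leukemia fusion kinase. This gave 3 lines per mouse and condition, 6 EV and 6 BCR-ABL1 lines in all, which are named by mouse and letter (1A to 2C). The paper describes them as triplicates from 3 independent experiments. Whether equal letters mark the same experiment is not given in the sources used here. After 48 h with IL7, BCR-ABL1 lines were kept without the cytokine for 1 week. IL7 was not withdrawn from EV lines, which grew over a comparable period before a GFP sort. The labels give no other treatment. Every difference between the conditions is therefore a difference between BCR-ABL1 cells without IL7 and vector cells with IL7, and the effects of the kinase, of the withdrawn cytokine and of the sort cannot be told apart.

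Cytokine receptors are built from chains that meet when a ligand binds. Most chains of the families named here have no enzyme activity of their own and carry JAK kinases, which phosphorylate STAT factors. The IL1, IL18 and IL17 receptors instead signal through adaptor proteins, and decoy chains bind a ligand without passing on a signal. A cell often holds 1 chain of a pair without its partner, so the levels of both chains and of the ligand are given together where possible.

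Counts on genes summed to between 34791011 and 64547911 in EV lines and to between 45230023 and 66011225 in BCR-ABL1 lines. Levels are given as CPM (counts on the gene per 1000000 counts) on TMM-scaled library sizes, and comparisons between genes as CPM per kb of exons. A level of 3 counts in a line was taken as the floor of detection. B lineage identity was visible in all 12 lines, since each of the 9 B lineage markers passed the count filter, and their summed levels ranged over EV lines from 3289 to 6122 CPM and over BCR-ABL1 lines from 3195 to 3960 CPM. The highest of these per kb was Vpreb1, a surrogate light chain gene (186 to 790 CPM over all lines), and only Cd93 was called different (log2 fold change -1.02, adjusted p = 0.0326 in the edgeR test described next). No line reached 1 CPM for any of 10 myeloid, 9 mast cell and basophil or 8 stromal markers, and none of these passed the filter. The defining markers Lyz2, Mpo, Cpa3 and Col1a1 were among them.

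Before the results, the EV lines of mouse 2 have to be set apart. The biological coefficient of variation was 0.388 among EV lines of mouse 2, against 0.0950 among EV lines of mouse 1 and 0.0849 and 0.103 among BCR-ABL1 lines of mouse 1 and mouse 2. EV 2A had the lowest total count, yet 36123 genes had a count in it, against 28517 in EV 2B and 20235 to 25143 in the other lines. Of 25712 genes below the filter with any count, 17198 (66.9%) had their highest level in EV 2A. Summed stromal markers were at 2.05 CPM in EV 2A and at no more than 0.377 CPM in any other line, and summed myeloid markers at 1.90 CPM against at most 0.794 CPM. EV 2C stood apart in another way: its Il4ra, Il6st and Il6ra levels were the highest of all EV lines and its Il1rap, Ifngr1 and Il12rb1 levels the lowest. For several chains, values without 1 or 2 of these lines are given beside the result. In bulk RNA, a change in the share of a cell type cannot be told apart from a change in RNA per cell, here or in any comparison that follows.

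Of the 37 chains, 22 passed edgeR's filterByExpr, which asked for about 0.190 CPM in 6 lines, and 15 did not. The 22 were compared between BCR-ABL1 and EV lines by glmTreat on the quasi-likelihood fit, a test for changes beyond 1.5-fold, with p-values adjusted by Benjamini-Hochberg over all 15038 tested genes and a threshold of 0.05 (called). Called higher were 5 chains (Il1r2, Il12rb1, Lifr, Il10ra and Ifngr2), or 22.7% of the 22, whereas 5.99% of all tested genes were called higher. The glmTreat test called 0 chains lower (6.49% of all tested genes were called lower), with 1 chain lower at an unadjusted p under 0.05 (Il11ra1) and 0 lower by DESeq2. Since the mouse pairs the lines, the fit was repeated with mouse as a block: 8 chains were then called higher (7.49% of all tested genes), with Il4ra, Il6st and Il13ra1 in addition, and 0 lower (7.18% of all tested genes). Of the 22 changes 16 were positive and 6 negative, with a median log2 fold change of 0.64. Over all tested genes 48.3% were positive and the median was -0.02. Il1r2 passed the filter through BCR-ABL1 lines alone, as no EV line reached the level asked for. Il6st and Il13ra1 reached it in 3 EV lines and Lifr in 2, so the counts and the median over the 22 describe the chains that passed and not all 37. The list was also chosen with earlier results of these data known, so its shares are a description and not a test of the set. Among the 15 chains that reached the level in all 12 lines, 12 changes were positive and 3 chains were called higher. The BCR-ABL1 effect differed between the mice for 10 of the 22 chains (interaction of mouse and condition, glmQLFTest, adjusted p under 0.05), against 16.9% of all tested genes. Every one of these 10 changes was more positive in mouse 1, as were 63.8% of the genes that passed this test over the whole table.

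**Figure D1:**
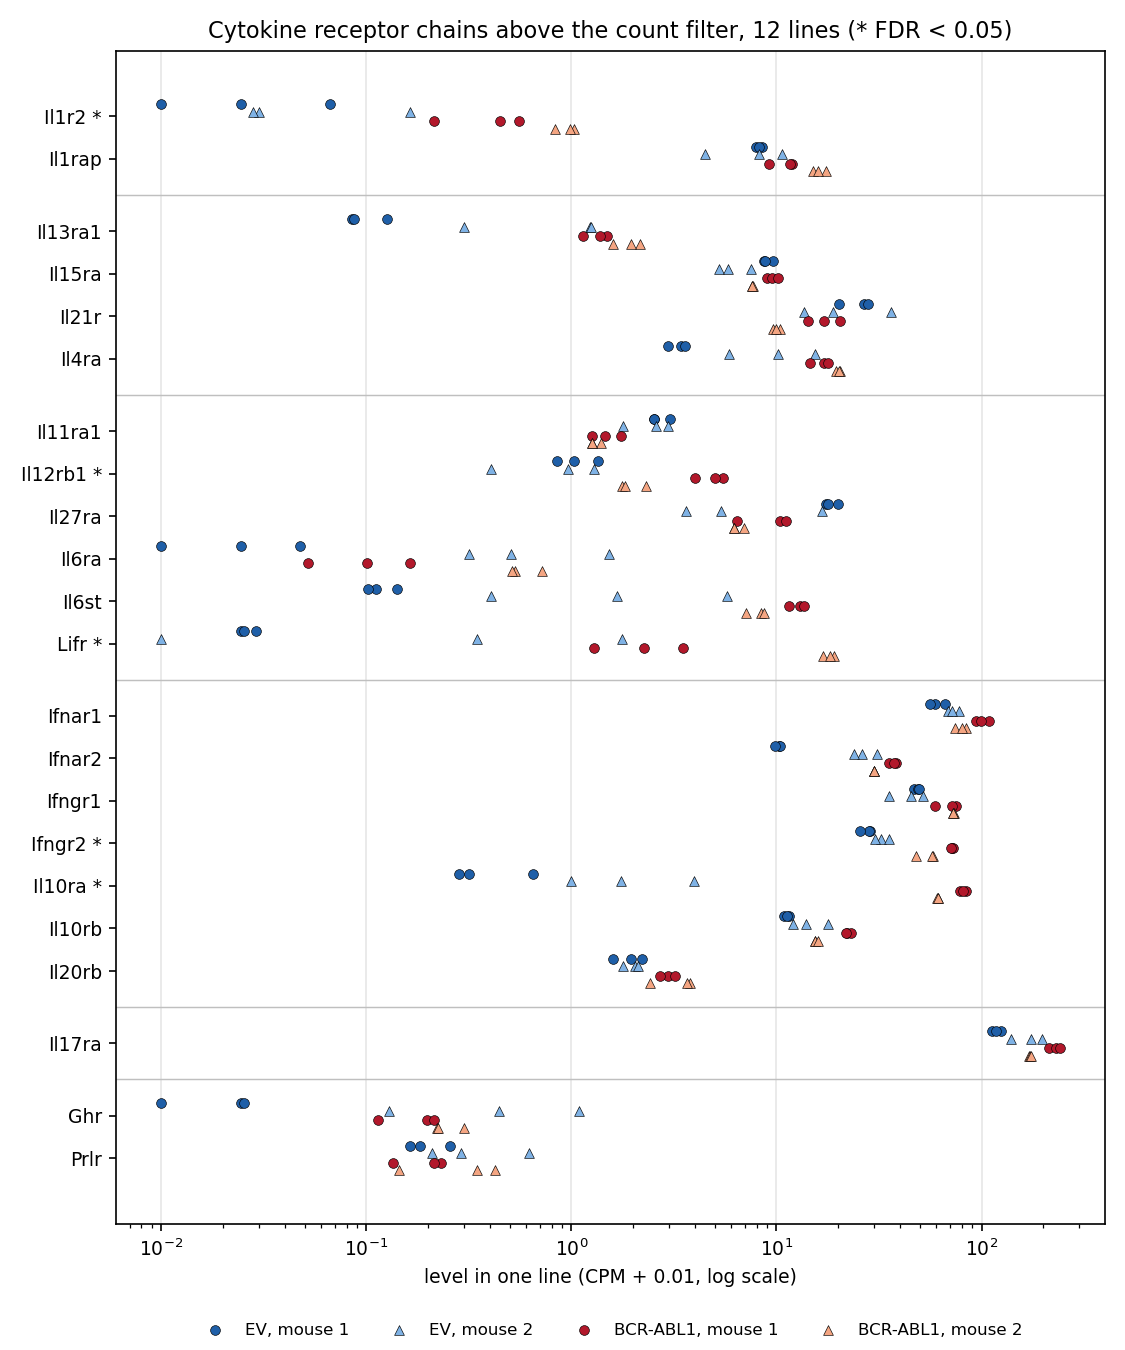
Level of each of the 22 tested receptor chains in each of the 12 lines, in CPM on a log axis with a small constant added so that zeros can be drawn. Colors and symbols mark condition and mouse, rows are grouped by receptor family, and asterisks mark the 5 chains called higher in BCR-ABL1 lines, such as Il10ra with no overlap between the conditions.

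The IL1 and IL18 receptor family held 6 of the chains. Il1r2 encodes the decoy receptor of IL1, which binds the cytokine without signaling. Its identifier is ENSMUSG00000026073. It was nearly silent in EV lines, at a lowest level of 0, a median of 0.0189 and a highest of 0.153 CPM, and low in BCR-ABL1 lines, at 0.204, 0.682 and 1.02 CPM. All BCR-ABL1 lines lay above all EV lines. Within BCR-ABL1 lines, those of mouse 2 (0.821 to 1.02 CPM) were above those of mouse 1 (0.204 to 0.543 CPM). The 6 EV lines held 11 counts together and the 6 BCR-ABL1 lines 215 counts, a ratio of 20.1 after scaling (95% exact interval 11 to 40.9, for counting error only). The fitted change was 4.13 on the log2 scale (standard error 0.65, adjusted p = 0.00128), at 4.07 in mouse 1 and 4.10 in mouse 2. Without EV 2A, which held 5 of the 11 counts, it was 4.86 (adjusted p = 0.000355), and leaving out any 1 line kept the call, over adjusted p-values of 0.000355 to 0.00449. No EV line reached the filter level, so Il1r2 was tested only because of the condition in which it was high. The p-values of this filtered fit are therefore no independent support for the rise.

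Il1r2 lies on chromosome 1 of GRCm38 from 40074079 to 40125231 on the plus strand and is the first of a row of 6 receptor genes within 478 kb: Il1r2, Il1r1, Il1rl2, Il1rl1, Il18r1 and Il18rap. Il1rl2 is not among the 37 chains. The genes beside Il1r2 were near the floor. Il1r1, the signaling IL1 receptor, had at most 9 counts in any EV line and 0 in all BCR-ABL1 lines. Il18r1, the ligand-binding IL18 receptor chain, also had 0 counts in all BCR-ABL1 lines, and Il1rl1, the IL33 receptor, had 1 count over these 6 lines. Il18rap, the second IL18 receptor chain, had 25 counts over EV lines, 14 of them in EV 2A, and 29 over BCR-ABL1 lines (exact permutation p = 0.937). The partner chain Il1rap, which joins the signaling IL1, IL33 and IL36 receptors, lies on chromosome 16 and was expressed throughout, at 4.45, 8.19 and 10.6 CPM (lowest, median and highest) in EV lines and 9.13, 13.4 and 17.4 CPM in BCR-ABL1 lines. Its change of 0.76 on the log2 scale (standard error 0.21) was not called against 1.5-fold (adjusted p = 0.330). The change of Il1rap was larger in mouse 2 (1.06) than in mouse 1 (0.40), and the interaction with mouse did not pass (glmQLFTest, adjusted p = 0.242). BCR-ABL1 lines thus held RNA of the partner chain and of the decoy, but no detectable RNA of the signaling IL1 receptor at a floor of 3 counts in a line.

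The upstream bases of Il1r2 are shown because it was the only gene tested and called in this row. They are from RefSeq (GRCm38.p6, chr1:40085843-40086092, plus strand), for the bases -250 to -1 of a start that lies 12.0 kb inside the GENCODE gene. The motif TTCNNNGAA, a core of sites that many STAT factors bind, was searched in each promoter window (250 bases before to 50 after the start). It is its own reverse complement, so both strands are covered, and no other motif was searched. It is in 8.30% of the 32851 windows of the RefSeq table. Of the 37 chains 29 had windows, 40 in all, and 6 windows of 6 chains held the motif. A match is a description of these letters and not a binding site. In the Il1r2 sequence the capitals mark the match, which begins at -111.
Il1r2: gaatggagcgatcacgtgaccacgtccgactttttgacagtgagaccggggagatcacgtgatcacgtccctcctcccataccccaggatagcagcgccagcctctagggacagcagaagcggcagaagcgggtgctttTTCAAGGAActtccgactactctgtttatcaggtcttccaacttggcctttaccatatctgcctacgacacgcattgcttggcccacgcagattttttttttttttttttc
The other matches stood in Il12rb2 (chr6:67376293-67376321, minus strand), in the third start of Il18r1 (chr1:40465777-40465805 and chr1:40465844-40465872, plus strand), in the second start of Prlr (chr15:10223786-10223814, plus strand), and in Ifnar1 and Ifnar2, which are shown with their neighbors. These short stretches are given with the motif in capitals to show how the central bases differ, and 3 of the 4 belong to genes below the filter.
Il12rb2: gttcccttttTTCTCAGAAccgcactaag
Il18r1, first match: tcggggttagTTCTGGGAActgtggagct
Il18r1, last match: agtacaggtcTTCCCAGAActgaaagctt
Prlr: gcaaaatgagTTCTAGGAAtaagggatat

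**Figure D2:**
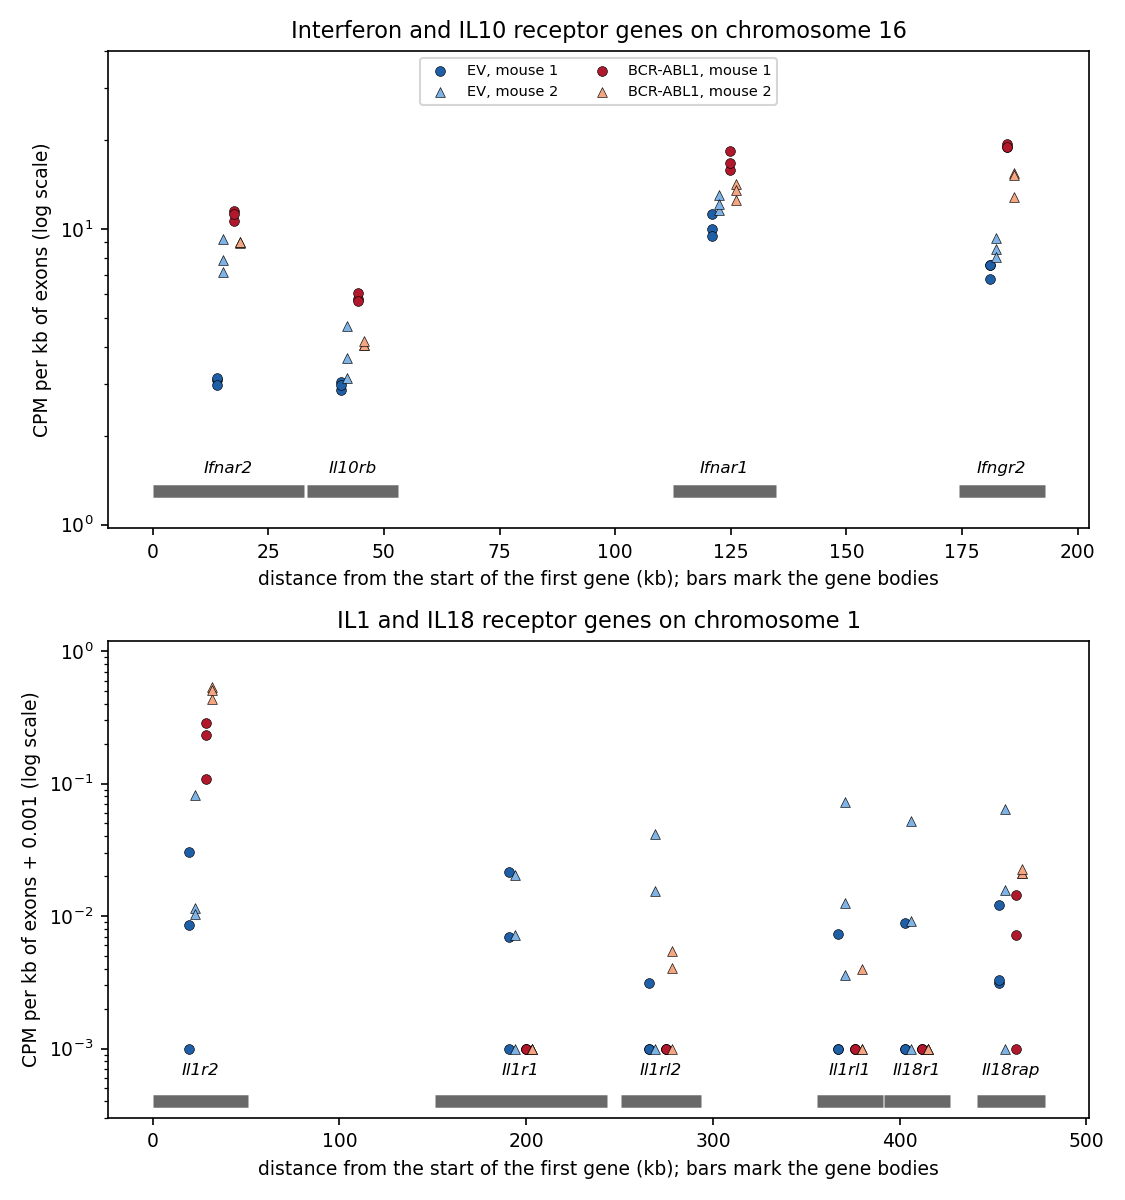
Levels of the receptor genes of chromosome 16 (top) and chromosome 1 (bottom) in each of the 12 lines, in CPM per kb of exons on log axes, against distance in kb along the row of genes. All 4 genes on chromosome 16 were well above the floor in every line. On chromosome 1 only Il1r2 passed the count filter, through BCR-ABL1 lines alone, where it was higher.

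Among the chains that pair with the common gamma chain or share its ligands, 4 of 6 were tested and 0 were called by glmTreat on the quasi-likelihood fit without the mouse, in either direction (2 higher and 0 lower at an unadjusted p under 0.05, 0 by DESeq2, and Il4ra higher by glmTreat on a likelihood ratio fit, adjusted p = 0.0374). Il4ra is the signaling chain for IL4 and IL13 and lies on chromosome 7 from 125552120 to 125579474. It was at 2.93, 4.73 and 15.4 CPM (lowest, median and highest) in EV lines and at 14.6, 18.6 and 20.5 CPM in BCR-ABL1 lines. The conditions overlapped through EV 2C alone, at 15.4 CPM. EV lines of mouse 1 lay between 2.93 and 3.58 CPM and those of mouse 2 between 5.89 and 15.4 CPM, whereas the BCR-ABL1 lines of both mice lay close together. Il4ra had a change of 1.40 on the log2 scale (standard error 0.38, adjusted p = 0.0715). With mouse as a block it was 1.62 and passed (adjusted p = 0.00748), and without EV 2C it was 1.81 (adjusted p = 0.00413). It was 2.31 in mouse 1 and 0.93 in mouse 2, a difference of -1.39 on the log2 scale (standard error 0.37, interaction adjusted p = 0.0250). This interaction was lost when any 1 of 7 lines was left out, EV 1A or 1B or a BCR-ABL1 line other than 1A.

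Il13ra1, the chain that joins Il4ra in the receptor for IL13, lies on the X chromosome and was low. EV lines were at 0.0753, 0.202 and 1.23 CPM (lowest, median and highest) and BCR-ABL1 lines at 1.13, 1.53 and 2.16 CPM. EV 2A and EV 2B, both at 1.23 CPM, reached into the BCR-ABL1 range, and the 3 EV lines of mouse 1 were at no more than 0.116 CPM. For Il13ra1 it came to 1.72 on the log2 scale (standard error 0.67, adjusted p = 0.199), 2.25 with mouse as a block (adjusted p = 0.0217), 2.45 and not called with mouse and line as block (adjusted p = 0.0579) and 3.51 without EV 2A and EV 2B (adjusted p = 0.000202), a choice made after seeing the data. It was 3.84 in mouse 1 and 1.07 in mouse 2 (interaction adjusted p = 0.0143, lost without EV 2A and EV 2B). Both chains of the IL13 receptor thus had the same order, with EV of mouse 1 lowest and BCR-ABL1 of mouse 2 highest in mean level.

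Il21r, the IL21 receptor chain, begins 24.0 kb after the end of Il4ra on the same strand and had a change of the other sign. EV lines ranged from 13.7 to 36.0 CPM and BCR-ABL1 lines from 9.66 to 20.3 CPM, with overlap, and the change of -0.82 on the log2 scale (standard error 0.25) was not called (adjusted p = 0.309). Il15ra, which presents IL15, was at 5.24 to 9.64 and 7.59 to 10.2 CPM, with a change of 0.17 on the log2 scale (standard error 0.17, adjusted p = 1). Il2rb, the beta chain for IL2 and IL15, and Il9r were below the filter.

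The family of gp130 and of the IL12 receptor held Il6st, the chain with the largest interaction with mouse, and Lifr. Lifr encodes the receptor for leukemia inhibitory factor (LIF) and lies on chromosome 15 from 7090614 to 7197489 (ENSMUSG00000054263, positions on GRCm38 here and below). EV lines were at 0, 0.0171 and 1.75 CPM (lowest, median and highest), and BCR-ABL1 lines at 1.27, 10.2 and 19.1 CPM. The conditions overlapped, since EV 2B, at 1.75 CPM, was above BCR-ABL1 1B, at 1.27 CPM. BCR-ABL1 lines of mouse 1 lay between 1.27 and 3.48 CPM and those of mouse 2 between 16.9 and 19.1 CPM. In mouse 1 the EV lines held 3 counts in all and the BCR-ABL1 lines 365, a scaled ratio of 151 (95% exact interval 51.3 to 737, for counting error only). In mouse 2 the counts were 99 and 3007, a ratio of 25.3 (20.7 to 31.3), and 88 of the 99 were in EV 2B. Over all lines Lifr changed by 4.86 on the log2 scale (standard error 1.32, adjusted p = 0.0322), and 5.33 with mouse as a block (adjusted p = 0.00110). The call was lost when any 1 of 7 lines was left out, EV 1A, 1B, 1C or 2A or a BCR-ABL1 line of mouse 2, at adjusted p-values of 0.0556 to 0.0605, while the log2 fold change stayed between 4.59 and 7.35 over all 12 omissions. Without EV 2A and EV 2C it was 4.52 and not called (adjusted p = 0.0648), and without EV 2A and EV 2B it was 9.44 and called (adjusted p = 0.000506). Both omissions were chosen after seeing the data. The interaction of Lifr with mouse did not pass (adjusted p = 0.447), but it did without the gene filter.

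Il6st encodes gp130, the shared signaling chain for IL6, IL11, LIF, oncostatin M and IL27. Its EV lines were at 0.0921, 0.265 and 5.73 CPM (lowest, median and highest), and its BCR-ABL1 lines at 7.11, 10.0 and 13.6 CPM. All BCR-ABL1 lines lay above all EV lines, but the EV lines themselves spread widely. The 3 EV lines of mouse 1 were at 0.0921 to 0.132 CPM, and EV 2A, 2B and 2C at 1.66, 0.397 and 5.73 CPM. A change of 2.94 on the log2 scale (standard error 0.95) did not pass (adjusted p = 0.0773). It passed with mouse as a block (3.93, adjusted p = 0.0329), by DESeq2 (2.95, adjusted p = 0.0450), by the likelihood ratio fit (2.94, adjusted p = 0.0206) and without EV 2C (4.53, adjusted p = 0.00185). It was 6.86 in mouse 1 and 1.62 in mouse 2, a difference of -5.24 (standard error 1.01, interaction adjusted p = 0.00462).

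The alpha chains that bring ligands to gp130 were not called. Il6ra was below 2 CPM in every line, with EV lines at 0 to 1.51 CPM, BCR-ABL1 lines at 0.0418 to 0.706 CPM and a change of -0.22 on the log2 scale (standard error 1.02, adjusted p = 1), and its sign turned without EV 2C (1.08, adjusted p = 0.795). Its interaction with mouse did not pass (adjusted p = 0.133), but did without the gene filter, by the likelihood ratio test and without EV 2A and EV 2B. Il11ra1, the IL11 receptor chain, had EV lines at 1.77 to 3.01 CPM and BCR-ABL1 lines at 1.25 to 1.73 CPM, with all EV lines above all BCR-ABL1 lines. Its change was -0.88 on the log2 scale (standard error 0.16, adjusted p = 0.0731), at -0.86 in mouse 1 and -0.91 in mouse 2, and it passed without EV 2C (-0.97, adjusted p = 0.0120). Its near-identical copy Il11ra2 was listed at 0 in every line, so reads of the copies could have been split or dropped and the level is uncertain. Il27ra, the IL27 receptor chain, had EV lines at 3.62 to 19.9 CPM and BCR-ABL1 lines at 6.18 to 11.1 CPM. EV 2A and EV 2B, at 3.62 and 5.32 CPM, were far under the other EV lines (16.6 to 19.9 CPM), and without both the log2 fold change moved from -0.78 (adjusted p = 0.548) to -1.20 (adjusted p = 0.0108). Osmr, the oncostatin M receptor, was below the filter, with 2 counts over the 6 BCR-ABL1 lines.

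Il12rb1, a chain shared by the IL12 and IL23 receptors, lies on chromosome 8 from 70808449 to 70821424 (ENSMUSG00000000791). EV lines were at 0.397, 0.982 and 1.34 CPM (lowest, median and highest) and BCR-ABL1 lines at 1.75, 3.14 and 5.50 CPM, without overlap. BCR-ABL1 lines of mouse 1 (3.98 to 5.50 CPM) were above those of mouse 2 (1.75 to 2.3 CPM). Il12rb1 rose by 1.81 on the log2 scale (standard error 0.37, adjusted p = 0.0141), and the call held with any 1 line left out (adjusted p-values of 0.0105 to 0.0322). In mouse 2 alone the value was 1.19 and was not called (adjusted p = 0.316), while the interaction did not pass (adjusted p = 0.197), though it did without EV 2C and without EV 2A and EV 2C. Il12rb2, the chain that completes the IL12 receptor, was below the filter, with 9 counts over the EV lines and 35 over the BCR-ABL1 lines.

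**Figure D3:**
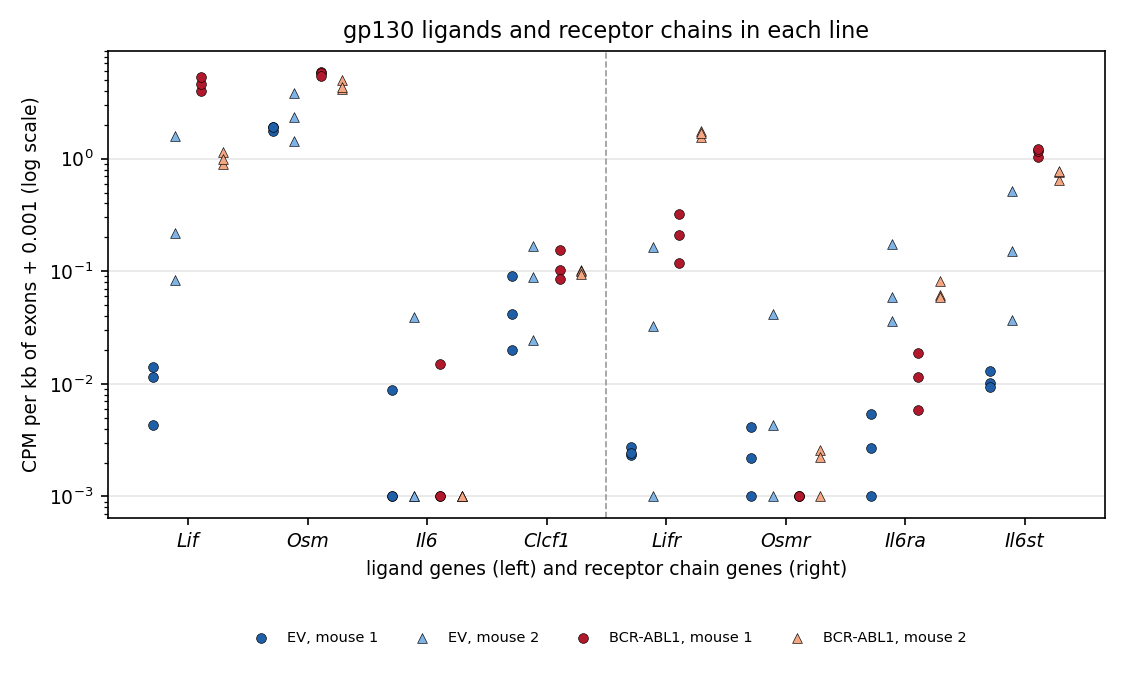
Levels of Lif, Osm, Il6 and Clcf1, which encode ligands of gp130 receptors, and of the receptor chains Lifr, Osmr, Il6ra and Il6st in each of the 12 lines, in CPM per kb of exons on a log axis with a small constant added. BCR-ABL1 lines of mouse 1 were high for Lif and low for Lifr, and those of mouse 2 the reverse. In EV lines the means of both genes were higher in mouse 2. Osmr and Il6 were near the floor in both conditions.

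The ligand genes of this family were compared as part of a list of 42 ligands and antagonists, of which 9 passed the filter. Of these 9, 2 were called higher and 1 lower, whereas 5.99% and 6.49% of all tested genes were called. Osm, which encodes oncostatin M, was at 3.24, 4.33 and 8.67 CPM (lowest, median and highest) in EV lines and at 9.46, 11.9 and 13.4 CPM in BCR-ABL1 lines (log2 fold change 1.22, standard error 0.22, adjusted p = 0.0175). Csf1, the ligand of Csf1r, rose, with EV lines at 2.01 to 5.54 CPM and BCR-ABL1 lines at 9.77 to 14.2 CPM (log2 fold change 2.04, standard error 0.26, adjusted p = 0.000599), while Csf1r itself stayed below the filter. Il12a, which encodes a subunit of IL12 and IL35, fell by 1.90 on the log2 scale (adjusted p = 0.00296). Lif, named here after its values were seen, was at 0.0144 to 0.0565 CPM in EV lines of mouse 1, and EV lines of mouse 2 were at 0.358 to 6.96 CPM. Its BCR-ABL1 lines were at 17.4 to 22.9 CPM in mouse 1 and 3.87 to 5.02 CPM in mouse 2. The change of Lif was not called over all lines (log2 fold change 3.13, adjusted p = 0.158), and it differed between the mice (interaction adjusted p = 0.00173). Within BCR-ABL1 lines the mouse with more Lif RNA was thus the one with less Lifr RNA. EV lines did not show this order: mouse 2 had more Lif RNA and also the higher mean Lifr level (0.695 against 0.0162 CPM). Its EV lines differed in Lifr, with EV 2B at 1.75 CPM and EV 2C at 0 CPM. The relation rests on lines of 2 mice and was not tested.

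The IL10 and interferon receptor family, the class II cytokine receptors, had 7 of its 8 chains tested. All 7 changes were positive over all lines, and 2 were called higher. Over all tested genes 48.3% of the changes were positive and 5.99% were called higher. In mouse 2 the log2 fold changes of Il10rb, Ifnar1 and Ifnar2 were small, at 0.10, 0.14 and 0.15. Those of the other tested chains of the family were 0.72 to 4.75 there. Il10ra, the ligand-binding IL10 receptor chain, lies on chromosome 9 from 45253837 to 45269149 (ENSMUSG00000032089). EV lines were at 0.274, 0.811 and 3.95 CPM (lowest, median and highest) and BCR-ABL1 lines at 60.5, 70.2 and 84.4 CPM. The conditions were far apart, and within EV lines the levels of mouse 2 (0.981 to 3.95 CPM) were above those of mouse 1 (0.274 to 0.640 CPM). In BCR-ABL1 lines the order of the mice was the reverse, with 78.7 to 84.4 CPM in mouse 1 and 60.5 to 61.6 CPM in mouse 2. The log2 fold change was therefore 7.68 in mouse 1 and 4.75 in mouse 2, a difference of -2.93 (standard error 0.56, interaction adjusted p = 0.00442). Over all lines it was 5.77 (standard error 0.62, adjusted p = 8.28e-05). All alternatives tried kept this call, at adjusted p-values of up to 0.00391, and without EV 2B, the highest EV line, the value was 6.52. Il10rb, the partner chain shared with the receptors for IL22 and interferon lambda, differed less between the conditions. It was at 10.8, 11.8 and 17.8 CPM in EV lines and at 15.4, 18.8 and 23.1 CPM in BCR-ABL1 lines, which overlapped through EV 2B, with a change of 0.55 on the log2 scale (standard error 0.16, adjusted p = 0.856). Per kb of exons, the EV mean of Il10ra was 0.376 ± 0.4 CPM (SD, n = 6), under Il10rb at 3.39 ± 0.694. In BCR-ABL1 lines the mean was 20.4 ± 3.22, above Il10rb at 4.97 ± 0.976.

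Ifngr2, the signaling chain of the interferon gamma receptor, lies on chromosome 16 from 91547072 to 91565623 (ENSMUSG00000022965). EV lines were at 25.5, 29.4 and 35.2 CPM (lowest, median and highest) and BCR-ABL1 lines at 48.1, 64.6 and 72.6 CPM, without overlap. Ifngr2 rose by 1.07 on the log2 scale (standard error 0.11, adjusted p = 0.00199), and leaving out any 1 line kept the call (adjusted p-values of 0.000790 to 0.00616). The change was larger in mouse 1 (1.39) than in mouse 2 (0.74), with an interaction of -0.65 (standard error 0.13, adjusted p = 0.00544), and mouse 2 alone did not pass against 1.5-fold (adjusted p = 0.217). Its partner Ifngr1, which binds interferon gamma, was at 35.6, 47.9 and 51.9 CPM in EV lines and 59.1, 72.6 and 75.1 CPM in BCR-ABL1 lines, again without overlap. The change of 0.61 on the log2 scale (standard error 0.09) passed against no change (adjusted p = 0.000292) and was not called against 1.5-fold (adjusted p = 0.598). Per kb, Ifngr1 was the higher of the pair in both conditions, at 16.3 ± 2.02 and 24.8 ± 2.03 CPM (SD, n = 6), against 7.96 ± 0.897 and 16.8 ± 2.68 CPM for Ifngr2.

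Ifngr2 is the last of 4 receptor genes that follow each other on the plus strand of chromosome 16 within 193 kb: Ifnar2, Il10rb, Ifnar1 and Ifngr2. Ifnar2 and Ifnar1 form the receptor for type I interferon. Ifnar2 (91372783 to 91405589) was at 9.86, 17.1 and 30.8 CPM in EV lines and at 29.9, 32.7 and 38.2 CPM in BCR-ABL1 lines. Its EV lines fell apart by mouse, at 9.86 to 10.4 CPM in mouse 1 and 23.9 to 30.8 CPM in mouse 2, and EV 2B overlapped the BCR-ABL1 lines. The log2 fold change was 1.86 in mouse 1 and 0.15 in mouse 2, a difference of -1.71 (standard error 0.13, interaction adjusted p = 1.14e-05), and 0.85 over all lines (adjusted p = 0.315). Without EV 2A and EV 2B it was 1.29 and called (adjusted p = 0.0207), an omission chosen after seeing the data. Ifnar1 (91485238 to 91507441) was at 56.3, 67.6 and 77.3 CPM in EV lines and at 74.5, 88.9 and 109 CPM in BCR-ABL1 lines, with overlap by EV 2B. Its log2 fold change was 0.44 over all lines (adjusted p = 1), 0.73 in mouse 1 and 0.14 in mouse 2 (interaction -0.59, adjusted p = 0.00819). For Il10rb the values were 0.99 and 0.10 (interaction -0.89, adjusted p = 0.00607). All 4 genes of the row thus passed the interaction with the same sign. This sign was not particular to the row, since all 10 chains that passed had it. Over all tested genes 16.9% passed, and 63.8% of these were more positive in mouse 1. Of the family members elsewhere, Il10ra on chromosome 9 passed. Ifngr1 on chromosome 10 (adjusted p = 0.488) and Il20rb on chromosome 9 (adjusted p = 0.865) did not, though Ifngr1 passed without EV 2A and EV 2B. Without the gene filter, Ifnar2 and Il10rb still passed and Ifnar1 and Ifngr2 did not. Exons of Ifnar2 and Il10rb overlap those of the annotated read-through gene Gm21970 (315 and 569 bases), which was listed at 0, so reads in the shared exons may have been left uncounted.

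Upstream bases of 3 of the 4 genes are shown since the genes lie side by side (RefSeq, GRCm38.p6, plus strand). They are chr16:91372533-91372782 for Ifnar2, chr16:91484965-91485224 for Ifnar1 and chr16:91546809-91547058 for Ifngr2. Il10rb is missing from the table of promoters. Capitals mark TTCNNNGAA, which begins at -214 in Ifnar2 and at -5 in Ifnar1, where it spans the start. Il10ra, Il12rb1, Il17ra, Il2rb, Il22ra2, Il27ra and Csf1r were likewise without an entry.
Ifnar2: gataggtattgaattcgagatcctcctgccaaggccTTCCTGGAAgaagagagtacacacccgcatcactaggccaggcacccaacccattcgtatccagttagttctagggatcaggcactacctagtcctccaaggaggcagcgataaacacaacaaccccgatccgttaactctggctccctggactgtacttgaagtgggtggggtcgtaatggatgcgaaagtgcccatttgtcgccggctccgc
Ifnar1: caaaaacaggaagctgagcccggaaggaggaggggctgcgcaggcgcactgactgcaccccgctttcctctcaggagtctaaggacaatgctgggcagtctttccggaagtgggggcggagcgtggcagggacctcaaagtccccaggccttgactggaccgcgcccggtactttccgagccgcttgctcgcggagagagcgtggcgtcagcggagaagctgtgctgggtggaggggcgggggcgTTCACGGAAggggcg
Ifngr2: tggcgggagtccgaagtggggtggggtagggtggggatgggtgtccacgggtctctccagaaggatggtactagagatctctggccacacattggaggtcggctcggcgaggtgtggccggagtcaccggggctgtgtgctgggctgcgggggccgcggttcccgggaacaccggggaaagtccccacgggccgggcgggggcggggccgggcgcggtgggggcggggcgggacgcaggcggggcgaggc
The Ifngr2 window, of the only gene of the row that was called, held no match of these letters. Other spacings between TTC and GAA were not searched.

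Il20rb, a chain shared by the receptors for IL19, IL20 and IL24, was low and tightly held, with EV lines at 1.58 to 2.21 CPM and BCR-ABL1 lines at 2.41 to 3.76 CPM without overlap (log2 fold change 0.68, standard error 0.15, adjusted p = 0.423). Il22ra2, which encodes a secreted IL22 binding protein, was below the filter and is taken up with the other low genes.

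Of the 3 IL17 receptor chains Il17ra, the chain that all IL17 receptors share, was tested. It was at 113, 131 and 197 CPM (lowest, median and highest) in EV lines and at 171, 194 and 241 CPM in BCR-ABL1 lines. The conditions overlapped, as EV 2A, at 197 CPM, and EV 2B, at 174 CPM, lay among the BCR-ABL1 lines of mouse 2 (171 to 174 CPM) or above them. The log2 fold change was 0.95 in mouse 1 and 0.02 in mouse 2 (interaction -0.93, standard error 0.16, adjusted p = 0.00223), and 0.47 over all lines (adjusted p = 1). The partner chains Il17rb and Il17rc were below the filter, at no more than 4 and 6 counts in any line.

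Of the receptors for hormones and growth factors, Ghr and Prlr were tested. Ghr, the growth hormone receptor, was under 0.3 CPM in all lines but EV 2A (1.07 CPM) and EV 2C (0.433 CPM). EV lines were at 0, 0.0673 and 1.07 CPM (lowest, median and highest) and BCR-ABL1 lines at 0.104, 0.208 and 0.291 CPM. In mouse 1 the EV lines held 2 counts and the BCR-ABL1 lines 25, a scaled ratio of 15.5 (95% exact interval 3.87 to 135, for counting error only). In mouse 2 the counts were 65 and 39, a ratio of 0.501 (0.328 to 0.756). The interaction passed (-4.80, standard error 1.22, adjusted p = 0.0199), and it passed also without EV 2A and without EV 2A and EV 2C, but not without EV 1A. Of the 65 counts in EV lines of mouse 2, EV 2A held 35 and EV 2C 24. The log2 fold change over all lines was -0.32 (adjusted p = 1), 0.81 without EV 2A and 2.46 without EV 2A and EV 2C (adjusted p = 0.0320, an alternative chosen after seeing the data). Prlr, the prolactin receptor, was at 0.154 to 0.613 and 0.125 to 0.415 CPM, and its change of -0.15 on the log2 scale (standard error 0.40, adjusted p = 1) turned to 0.19 without EV 2A.

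**Figure D4:**
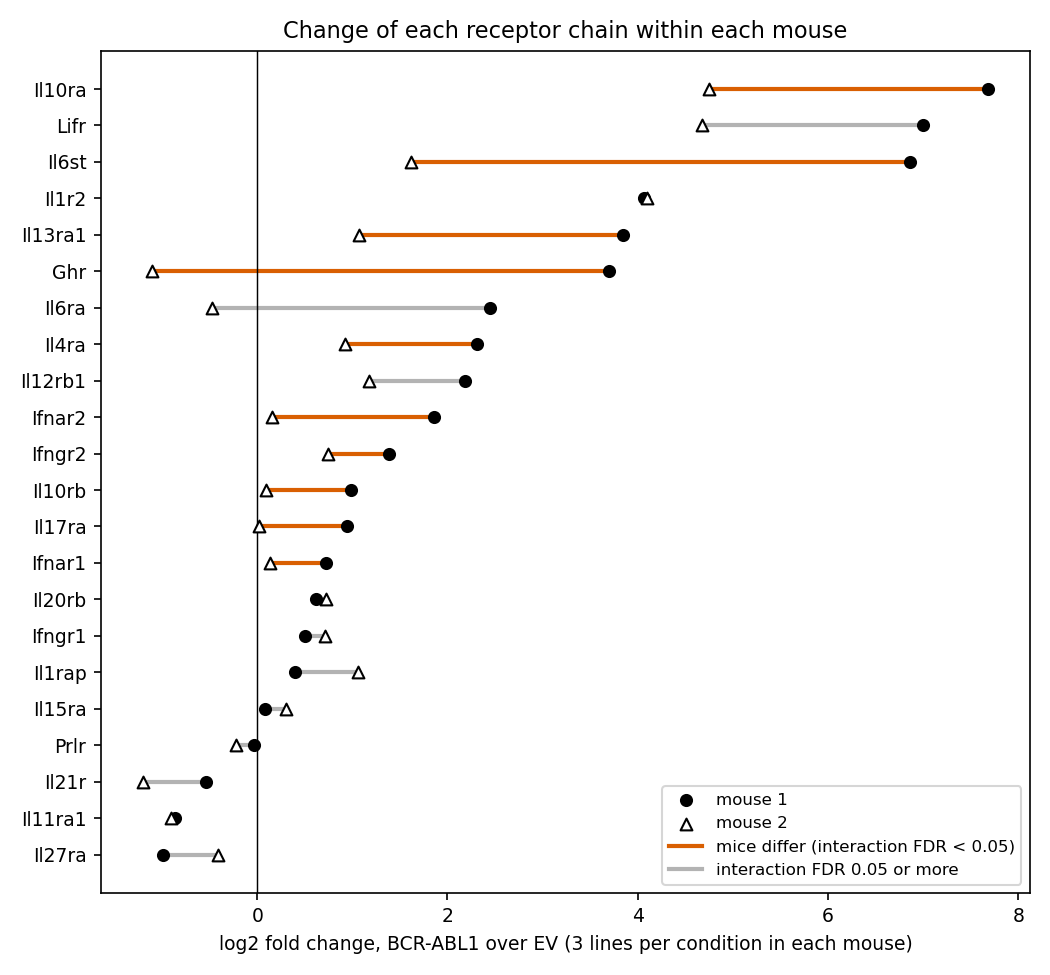
Log2 fold change between BCR-ABL1 and EV lines within mouse 1 (circles) and within mouse 2 (triangles) for the 22 tested chains, each from 3 lines per condition. The 10 chains whose effect differed between the mice are joined by colored bars, and in each of them the circle lies to the right, as for Il6st at 6.86 in mouse 1 and 1.62 in mouse 2.

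For 7 of the 10 chains (Il4ra, Il6st, Il10ra, Il13ra1, Il17ra, Ifnar2 and Ghr) the mice were further apart among EV lines than among BCR-ABL1 lines. For Il6st, EV lines of mouse 2 were 4.58 higher on the log2 scale than those of mouse 1, and BCR-ABL1 lines of mouse 2 were 0.66 lower (-0.66). For Il10ra these values were 2.51 and -0.41, for Ifnar2 1.40 and -0.30, for Il13ra1 3.29 and 0.52 and for Il4ra 1.67 and 0.28. For the other 3 the larger gap was among BCR-ABL1 lines, at 0.38 and -0.52 for Il10rb, 0.26 and -0.33 for Ifnar1 and 0.25 and -0.40 for Ifngr2. Each of the 10 chains was higher in EV lines of mouse 2 than in those of mouse 1. These gaps within a condition were not tested. In mouse 1 alone, glmTreat called 12 chains higher and 1 lower (Il27ra), while 16.3% of all genes tested there were called higher and 12.2% lower. In mouse 2 alone 2 chains were higher (Il10ra and Il1r2) and 0 lower, while 3.99% and 2.65% of all genes were called, so calls were fewer over the whole table. Leaving out EV 2C, which stood nearest to the BCR-ABL1 lines for Il4ra and Il6st, gave 7 chains higher and 1 lower (Il11ra1), and 12 chains passed the interaction. Calls also rose over all genes without EV 2C, to 8.83% higher, 9.35% lower and 36.0% passing the interaction.

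Of the 15 chains below the filter, 14 had more than 3 counts in at least 1 line, and Csf3r, the G-CSF receptor, had 3 at most. The highest level was in EV 2A for 12 of the 15, as for Osmr, the IL33 receptor Il1rl1 (16 counts each in this line) and Il2rb (10 counts). This share has to be read beside the 66.9% of all low genes with a count that were highest in EV 2A. Whether these values are part of the same excess of low counts was not tested. Each of the 14 was compared by a two-sided exact permutation test of mean CPM, which can go down to p = 0.00216 with 6 lines against 6. Il12rb2 alone had an unadjusted p under 0.05 among these 14 tests, at 0.0338 ± 0.0398 CPM (SD, n = 6) in EV and 0.108 ± 0.0454 CPM in BCR-ABL1 lines (exact permutation p = 0.0173). The ratio of its summed counts was 4.0 (95% exact interval 1.89 to 9.47, for counting error only). Its exons overlap those of Serbp1 on the other strand over 1519 bases, 40% of their length, and Serbp1 reached 1333 CPM. The libraries were stranded, but whether the counting used strand is not given in the sources used here, so reads of these genes may not be told apart. Il22ra2 had 8 counts over EV lines and 50 over BCR-ABL1 lines (exact permutation p = 0.0887), and 46 of the 50 were in mouse 1. The permutation tests did not take the mouse into account. Against these 46 counts, EV lines of mouse 1 held 1 count. In mouse 2 the direction was the other, with 7 counts in EV and 4 in BCR-ABL1 lines. Without the gene filter, the interaction of Il22ra2 with mouse passed. Csf1r (on chromosome 18), Epor and Lepr, the receptors for CSF1, erythropoietin and leptin, had at most 6, 4 and 8 counts in any line, and Il18rap 14, Il9r 9, Il17rc 6 and Il17rb 4. Exons of Csf1r and Il17rb also overlap a gene on the other strand.

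Ordered by mean CPM per kb of exons, the chains of EV lines were led by Il17ra (16.6 ± 3.94, SD, n = 6), Ifngr1 (16.3 ± 2.02), Ifnar1 (11.2 ± 1.32), Ifngr2 (7.96 ± 0.897), Il21r (7.19 ± 2.39) and Ifnar2 (5.57 ± 2.83). This order differed between the mice: Ifngr1 was above Il17ra in EV lines of mouse 1 (17.0 and 13.6) without overlap and below it in mouse 2 (15.5 and 19.7), and Ifnar2 was at 3.06 in mouse 1 and 8.08 in mouse 2. In BCR-ABL1 lines the order was Ifngr1 (24.8 ± 2.03), Il17ra (23.1 ± 3.67), Il10ra (20.4 ± 3.22), Ifngr2 (16.8 ± 2.68), Ifnar1 (15.2 ± 2.14) and Ifnar2 (10.1 ± 1.19). Here Il17ra and Ifngr1 overlapped in mouse 1 (means of 26.3 and 24.1), and in mouse 2 Ifngr1 was the higher (25.6 and 19.9). Il10ra moved from rank 14 to rank 3 and Il21r from rank 5 to rank 8. The mean was above 1 CPM per kb for 10 of the 37 chains in EV lines and for 12 in BCR-ABL1 lines.

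Of the 9 chains left out by the rule, all were tested, with 3 called higher and 2 lower. These counts and those below stand beside 5.99% of all tested genes called higher and 6.49% lower. The rises were in Csf2rb2 (6.89), Csf2rb (4.45) and Il3ra (1.87) and the falls in Il5ra (-2.22) and Il7r (-1.06), given as log2 fold changes with adjusted p-values of 5.18e-07 to 0.00328. Reads of Csf2rb and Csf2rb2, near-identical copies, could be shared. From a further list of receptor chains outside the rule, Flt3, the receptor tyrosine kinase for FLT3 ligand (3.61, adjusted p = 2.86e-05), and Crlf3 (0.85, adjusted p = 0.00850) were called higher. Of 12 receptor kinases and adaptors, all tested, 2 were called lower, Irak2 of the IL1 receptor pathway (-3.18, adjusted p = 0.00187) and Jak3 (-1.04, adjusted p = 0.00198), and 0 higher (0 at an unadjusted p under 0.05 as well). Jak1, Jak2 and Tyk2, the kinases that the gp130, IL12 and interferon receptors use, were not called.

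Markers of other cell types were low in both conditions. Summed levels of 10 T and NK cell markers ran from 0.650 to 2.33 CPM over EV lines and from 0.477 to 3.99 CPM over BCR-ABL1 lines, led per kb by Klrb1c. Cd3d fell from at most 0.644 CPM (log2 fold change -2.67, adjusted p = 0.000511). The 6 dendritic cell markers summed to 2.31 to 8.43 and 3.48 to 8.36 CPM, led by Bst2, and Zbtb46 was called lower (-1.91, adjusted p = 0.0139). Both Cd3d and Zbtb46 passed the filter through EV lines alone, so they were tested only because of the condition in which they were high. The 8 erythroid markers summed to 2.07, 2.38, 2.79, 2.85, 6.93 and 1.26 CPM in EV 1A to 2C and to 9.63, 5.94, 8.04, 12.7, 7.44 and 9.05 CPM in BCR-ABL1 1A to 2C. Their most abundant gene was Hbb-bt, which rose (1.72, adjusted p = 0.0296), 2 of the 8 had no count, and Epor was near the floor. Of the myeloid markers, 4 of 10 had no more than 3 counts in every line, and the sums ran from 0.261 to 1.90 CPM over EV lines and from 0.415 to 0.794 CPM over BCR-ABL1 lines. Mast cell and basophil markers summed to at most 0.460 CPM, with 7 of 9 at 3 counts or fewer. The part of these markers in the changes of the receptor chains was not tested.

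The 12 lines came from 2 mice, so lines of a mouse are repeats of the same marrow and the spread between animals rests on 2. The call of Lifr depends on which lines are kept, and so do those of Il4ra, Il6st and Il13ra1. Whether mouse enters the fit also changes the calls of Il4ra, Il6st and Il13ra1, and for Il13ra1 how it enters matters too. The calls of Il4ra and Il6st further depend on the test used, whereas no other test tried over all lines without mouse called Il13ra1. Calls near the floor, as for Il1r2, rest on few counts. RNA levels say nothing of receptor protein at the cell surface, which was not measured. Lines of BCR-ABL1 kept in IL7 and EV lines taken out of it would be needed to separate kinase and cytokine, and more mice to compare animals.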

How the data were processed

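RNA from 12 mouse pre-B lines was measured, and the authors deposited whole-number counts per gene, not normalized and not pooled. The submitters' processing notes name Trimmomatic 0.36, TopHat2 2.1.1, Bowtie2 2.3.2, featureCounts 1.5.3 and the build GRCm38, and the strand setting of the counting is not given in the sources used here. The members and lists were chosen with earlier results of these data known.

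The counts were analysed in R 4.3.3 with edgeR 4.0.16 (filterByExpr, TMM, quasi-likelihood glmTreat at 1.5-fold, glmQLFTest for the interaction) and, as an alternative, DESeq2 1.42.0. Adjustment ran over all 15038 tested genes. CPM for all genes used the TMM-scaled sizes of the tested genes. Standard errors were taken from the quasi-likelihood F test against no change. Symbols, positions and exon lengths came from GENCODE M21 on GRCm38 and matched 51633 of 51826 identifiers, all 37 members included. Exact tests and plots used Python 3.11.15, scipy 1.17.1 and matplotlib 3.10.9. The fits were tested on simulated counts. Total counts were 34791011 to 66011225 per line, and intervals and the floor of 3 counts cover counting error only. The libraries had no molecular identifiers.

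Named genes were all members: those called, those whose call changed with the mouse block and those passing the interaction by their levels in the lines, the rest by range and counts. Of the other lists, called genes with the 3 largest rises and falls were named, though not every one, and others are marked. Promoters (RefSeq, GRCm38.p6) were searched for TTCNNNGAA, and a planned search of protein sequences was not run, as no protein table was used here. Alternatives were RLE size factors, no gene filter, a filter at 1 CPM in 6 lines, likelihood ratio fits, DESeq2, no fold threshold, mouse or mouse and line as block, each mouse alone, and each line left out. Leaving out EV 2A with 2B or with 2C was added after seeing the data.

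EV and BCR-ABL1 lines with the same first digit came from the same animal by the labels, so the mouse pairs the lines. Deviations from the condition means correlated at 0.0853 to 0.240 between conditions in the same mouse and at -0.203 to -0.0636 in different mice. Equal letters within a mouse gave -0.109 to 0.0856 and were not taken to pair lines. These pairs also lie in the same mouse, so this range must rest on differently centered deviations and cannot be set against the first. Within a mouse and condition the chi-square statistic per gene was at least 9.96 for each pair of lines, so that no pair of libraries agreed within sampling noise.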

Additional observations from a re-analysis of the deposited data

Results flagged for a closer look

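The highest or lowest line of a condition was set against the other lines of that condition for the 22 tested chains, 44 groups in all, on log2 CPM. Chance would mark about 1 in 20 such groups if the lines of a group were independent and equally spread. Each group joins lines of 2 mice, and EV lines varied more in mouse 2, so this rate is only a rough guide. In all, 4 groups had a line that stood out, from 2 lines. EV 2C was the lowest EV line for Il1rap (4.45 CPM, the others 7.92 to 10.6 CPM), for Il11ra1 (1.77 CPM, the others 2.50 to 3.01 CPM) and for Ifngr1 (35.6 CPM, the others 45.3 to 51.9 CPM). BCR-ABL1 1A was the lowest BCR-ABL1 line for Ifngr1 (59.1 CPM, the others 71.8 to 75.1 CPM).

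The change between BCR-ABL1 and EV lines differed between the mice by edgeR's interaction test for 10 chains. Given as the log2 fold change of mouse 2 minus that of mouse 1, the values were -5.24 for Il6st, -4.80 for Ghr, -2.93 for Il10ra, -2.77 for Il13ra1 and -1.71 for Ifnar2. They were -1.39 for Il4ra, -0.93 for Il17ra, -0.89 for Il10rb, -0.65 for Ifngr2 and -0.59 for Ifnar1. With any 1 line left out 8 to 12 chains passed, and 15 without EV 2A and 2C and 12 without EV 2A and 2B. Of all tested genes 16.9% passed with all lines and 12.3% to 36.0% with any 1 line left out. Without EV 2A and 2C it was 37.8% and without EV 2A and 2B 36.0%, so passes also rose over the whole table. The part of the wide spread among EV lines of mouse 2 in the differences between the mice was not tested.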

How the results depend on the processing

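Changes of the 22 tested chains were recomputed in 522 combinations of chain and setting: 462 kept direction and side of the threshold, 36 gained a call, 11 lost one and 13 changed sign. The sign changes concerned 3 low chains that were not called over all lines. Il6ra turned to 0.25 with mouse as replicate block, 0.53 with mouse and line as block, 1.08 without EV 2C, 0.01 without BCR-ABL1 1B and 1.36 without EV 2A and 2C. Ghr turned to 0.28 and 0.68 under these blocks, to 0.81 without EV 2A, 2.46 without EV 2A and 2C and 0.83 without EV 2A and 2B. Prlr turned to 0.19 without EV 2A, 0.18 without EV 2A and 2C and 0.31 without EV 2A and 2B. Over each line left out, the log2 fold change ran from -0.56 to 1.08 for Il6ra, from -0.60 to 0.81 for Ghr and from -0.37 to 0.19 for Prlr. The number of chains called higher was 5 and became 14 against no change, 8 with mouse as block, 12 in mouse 1 and 2 in mouse 2, and 4 to 7 with each line left out. Of all tested genes 5.99% were called higher, and in these settings 22.5%, 7.49%, 16.3%, 3.99% and 5.29% to 8.83%. It was 7 by likelihood ratio glmTreat (with Il4ra and Il6st, 6.82% of all genes), 6 by DESeq2 (with Il6st, 5.29%), 7 with mouse and line as block (with Il4ra and Il6st, 6.14%), 4 with the filter at 1 CPM (without Il1r2, which was not tested, 5.02%), 5 with RLE size factors (6.10%) and without gene filter (2.65%), and 7 under each omission of EV 2A with 2B or 2C (9.34% and 10.2%). The mouse blocks changed no call other than those of Il4ra, Il6st and Il13ra1, and with mouse and line as block Il13ra1 was not called. The number called lower was 0 and became 2 against no change, 1 in mouse 1 and 1 under each omission of EV 2A with 2B or 2C, and it ranged from 0 to 1 with each line left out. Of all tested genes 6.49% were called lower, and 25.9% against no change, 12.2% in mouse 1, 6.16% without EV 2A and 2B, 9.87% without EV 2A and 2C and 5.24% to 9.35% with each line left out. The test against no change asks for less. For the other settings the cause was not tested. The number that differed between the mice was 10 and ranged from 8 to 12 with each line left out, where 12.3% to 36.0% of all genes passed. Without the gene filter it was 11 (7.96% of all genes), with Il6ra, Il22ra2 and Lifr gained and Ifnar1 and Ifngr2 lost. By the likelihood ratio test it was 11 (with Il6ra, 19.5%). With the filter at 1 CPM it was 9 (without Ghr, which was not tested, 18.2%), and with RLE size factors 10 (16.8%). It was 15 without EV 2A and 2C (37.8% of all genes) and 12 without EV 2A and 2B (also 36.0%). Chains under about 0.2 CPM in most lines rest on few counts, and small changes there could be missed.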

Other observations

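The protein-coding neighbors of the receptor gene rows, taken by position, were compared with them. Tmem50b, the first gene after Ifngr2, had a log2 fold change of -0.19 (-0.02 in mouse 1 and -0.37 in mouse 2, interaction adjusted p = 0.443 by edgeR). Its interaction thus did not pass, unlike those of the 4 receptor genes of chromosome 16. On the other side Olig1 and Olig2 had at most 7 and 6 counts in any line. Map4k4, upstream of Il1r2, had a log2 fold change of 0.12 (adjusted p = 1), and Slc9a4, after Il18rap, had at most 8 counts. Slc9a2, the next gene, was below the filter, with EV lines at 0 to 0.215 CPM and BCR-ABL1 lines at 0.0509 to 0.643 CPM, those of mouse 2 (0.274 to 0.643 CPM) above those of mouse 1 (0.0509 to 0.159 CPM), as for Il1r2. This was not tested. Beside Il4ra and Il21r, Nsmce1 had a log2 fold change of -0.03 Gtf3c1 one of -0.05 and D430042O09Rik one of -0.52 (adjusted p = 1). Tnfaip3, upstream of Ifngr1, was called lower (-1.14, adjusted p = 0.0248) and also differed between the mice (interaction adjusted p = 0.0121).

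Some ligand genes, named after their values were seen, had no count in BCR-ABL1 lines. Il10 had 49 counts (0.884 CPM) in EV 2C, 0.0920 CPM or less in the other EV lines and 0 counts in all 6 BCR-ABL1 lines, where Il10ra was high. Ifng had at most 7 counts in an EV line and 0 in all BCR-ABL1 lines, and Ifnb1 was listed at 0 in all 12 lines. Of the 42 ligands and antagonists, 16 had no more than 3 counts in every line and 34 stayed under 1 CPM in every line.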
